A study of Cavia porcellus with 13 samples.

Results

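The HOX genes of guinea pig (Cavia porcellus) skin were described across 13 RNA sequencing libraries of tick-bitten and unbitten biopsies. Every row of the deposited table whose symbol names a gene of the HOXA, HOXB, HOXC or HOXD cluster was taken, which gave 30 of 26855 genes, and the 24 of these above 0 TPM in at least 1 library are the genes described. TPM is a gene's length-scaled share of its library. The bitten groups were 3 bites (2 libraries), 2 bites (2), saliva immune (3) and first exposure (3), and naive skin without a bite (3) was the comparison, all carrying day 4 after attachment in the labels. The series asked how repeated infestation changes the skin, and how the saliva immune animals were immunized is not given. The library titles hold 2 prefixes, taken as 2 experiments: EF19-5 holds 3 bites, 2 bites and naive replicate 3 (5 libraries), and CK1 holds saliva immune, first exposure and naive replicates 1 and 2 (8 libraries). Neither the strain, sex and age of the animals nor the body site of the biopsies is given in the labels.

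HOX genes encode homeodomain transcription factors that give cells their position along the body axis. They lie in clusters, and genes with low paralog numbers are switched on early in the embryo and toward the head, while those with high numbers are switched on later, toward the tail and the ends of the limbs. Fibroblasts of adult human skin keep a site-specific set of active HOX genes, so the set that is on can mark where a piece of skin was taken. HOXC13 is an exception, since it acts in the hair follicle, where it drives keratin genes of the hair shaft.

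All 13 libraries carried skin transcripts. KRT14, a keratin of basal keratinocytes, stood at 7904 to 14039 TPM in EF19-5 and 4287 to 11212 TPM in CK1, and COL1A1, the main collagen of dermal fibroblasts, at 1342 to 5316 TPM in EF19-5 and 689 to 1440 TPM in CK1. The libraries differed in their markers of other tissue, so marker values are given beside many results below. The 17 skeletal muscle markers in the table made up 0.490% to 2.11% of TPM in EF19-5 and 2.12% to 15.2% in CK1, and none of the 17 was at 0 in any library. Saliva immune replicate 3 stood apart from the other CK1 libraries, with 2.12% muscle markers against 3.88% to 15.2% in those 7. Nothing in the labels ties each library to an animal of its own. The p-values therefore rest on the variation among these libraries, part of which may be technical.

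By cluster, 7 of 8 HOXA genes in the table were detected, 4 of 6 HOXB, 7 of 8 HOXC and 6 of 8 HOXD. The 6 genes listed at 0 in all 13 libraries were HOXA13, HOXB9, HOXB13, HOXC11, HOXD12 and HOXD13. All of them have paralog numbers of 9 or above, and HOXA13 and HOXD13 are known from the mouse as genes of the hand and foot. Of the detected genes, 18 were above 0 TPM in every library, 14 reached 1 TPM in every library, and 10 reached 10 TPM in at least 1. A library had 20 to 23 of them above 0 TPM and 14 to 19 at 1 TPM or more. The list of genes that were on was thus much alike in all libraries, and the libraries differed mainly in level. RefSeq lists 39 HOX genes for this species, and the 9 without a row (HOXA4, HOXA7, HOXA10, HOXB3, HOXB4, HOXB7, HOXB8, HOXC9 and HOXD11) are not analysed here.

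The highest of the 24 was HOXC13, with a mean of 99.4 TPM over the 13 libraries, which placed it above 89.7% of the 14979 genes tested. HOXD8, a gene of the trunk, followed with a mean of 38.6 TPM. HOXA5, needed in the mouse for the neck, the shoulder girdle and the lung, averaged 16.8 TPM, HOXD9 13.2, HOXB2 11.0 and HOXC6 10.5. Among those that followed were HOXC8 at 6.67, HOXA9 at 6.32 and HOXC5 at 5.70 TPM. The 14 lowest averaged between 0.00813 TPM (HOXA11) and 5.35 TPM (HOXA3). Because TPM is scaled by length, these levels can be set beside each other, except where annotated spans overlap: HOXC4, HOXC5 and HOXC6 share stretches in RefSeq, as do HOXD3 with HOXD4, HOXD9 with HOXD10, HOXA9 with HOXA10, and HOXB5 and HOXB6 each with HOXB3, and reads there may have been divided among them.

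**Figure D1:**
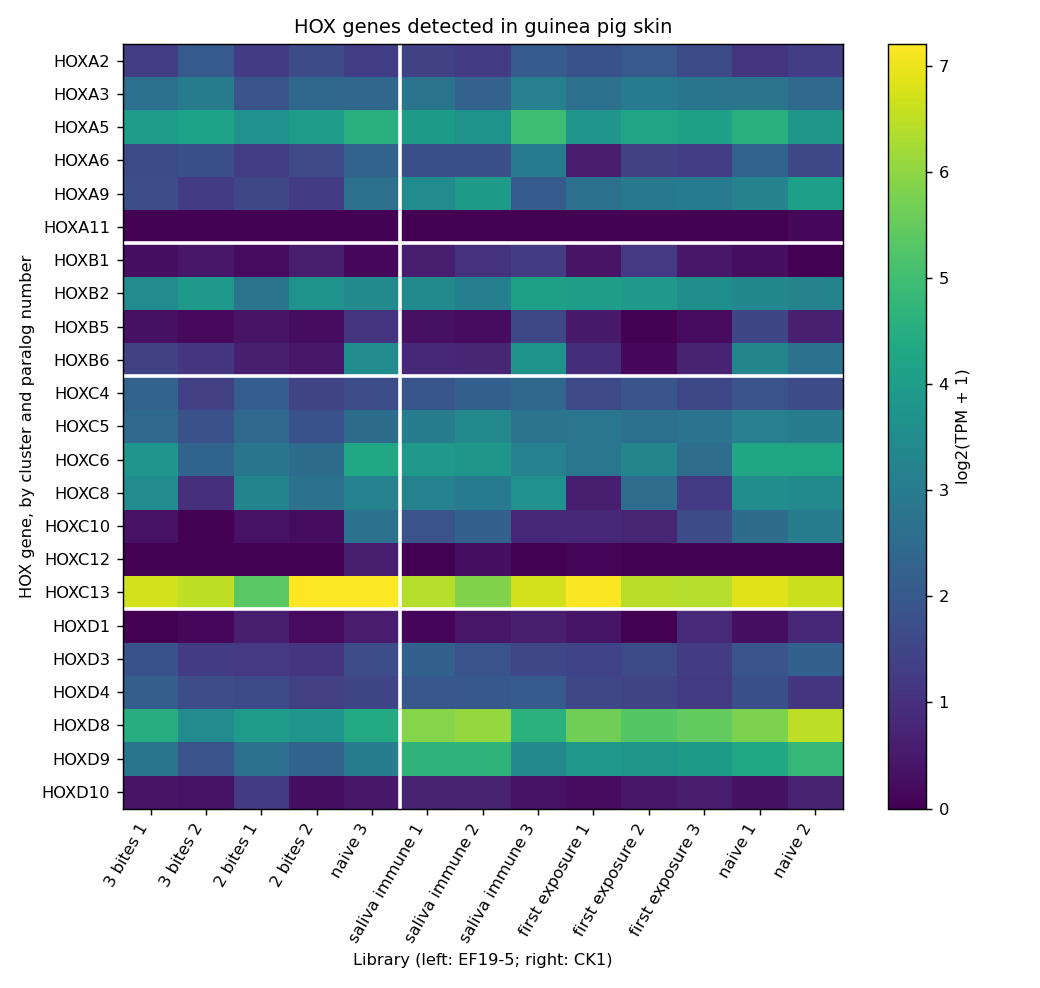
Level of 23 of the detected HOX genes (rows, by cluster and paralog number) in each library (columns, EF19-5 at the left and CK1 at the right), as log2(TPM + 1). HOXC13 is the highest row, at 40.4 to 146 TPM, and the rows of HOXA11 and HOXC12 stay below 1 TPM throughout.

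Several genes at the head end of the clusters were on in every library. HOXA2, which patterns the hindbrain in the mouse, had 1.1 to 3.23 TPM over the 13 libraries. HOXB2, another hindbrain gene, had 10.1 and 13.5 TPM in 3 bites, 5.89 and 11.9 in 2 bites and 9.77 in the naive library of EF19-5, against 9.99, 7.63 and 16.2 in saliva immune, 15.1, 13.6 and 11.1 in first exposure and 9.26 and 8.38 in the naive libraries of CK1. The range of HOXB2 in EF19-5 overlapped that in CK1. HOXA3, which in the mouse is needed for the thymus and parathyroid, ranged from 2.59 to 7.77 TPM. HOXB1, the most anterior gene of its cluster, was low, with 0 to 1.39 TPM, and HOXD1, above 0 in 11 libraries, reached at most 0.831 TPM.

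At the tail end, levels were low apart from HOXD9, HOXA9, HOXC10 and HOXC13. HOXA11 was above 0 only in naive replicate 2, at 0.106 TPM. HOXC12 was above 0 in 3 libraries and reached 0.519 TPM in naive replicate 3. HOXD10 was above 0 in all 13 libraries, at 0.171 to 1.45 TPM. These 3 genes and HOXD1 fell short of the filter for testing, 1 TPM in at least 2 libraries, which the other 20 detected genes passed.

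Genes at the tail end held a smaller share in the 5 EF19-5 libraries than in 7 of the 8 CK1 libraries. Leaving out HOXC13, genes with paralog numbers 9 to 13 made up 7.91% and 5.10% of summed HOX TPM in 3 bites, 11.4% and 7.57% in 2 bites and 13.6% in the naive library of EF19-5. In CK1 they made up 21.8%, 24.3% and 8.33% in saliva immune, 15.2%, 14.9% and 18.3% in first exposure and 17.0% and 22.7% in naive skin. Only saliva immune replicate 3 of CK1 fell within the range of EF19-5, and it was also the CK1 library with few muscle markers. The share was 5.10% to 13.6% in the 6 libraries with up to 2.12% muscle markers and 14.9% to 24.3% in the 7 with 3.88% or more. The share of paralog numbers 1 to 4 was 21.8% to 49.9% in EF19-5 and 11.9% to 30.5% in CK1, with overlap. The mean paralog number, each gene weighted by its TPM and HOXC13 left out, was 4.23 to 5.85 in EF19-5 and 5.30 to 7.08 in CK1. These shares are descriptions and carry no test. The share of numbers 9 to 13 is mostly HOXD9, HOXA9 and HOXC10, all called between the experiments below, so it restates those genes. HOXD10 overlapped, at 0.218 to 1.45 TPM in EF19-5 and 0.171 to 0.658 TPM in CK1. With HOXC13 counted, the weighted mean paralog number was 8.25 to 10.3 in EF19-5 and 8.30 to 9.65 in CK1, with overlap.

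**Figure D2:**
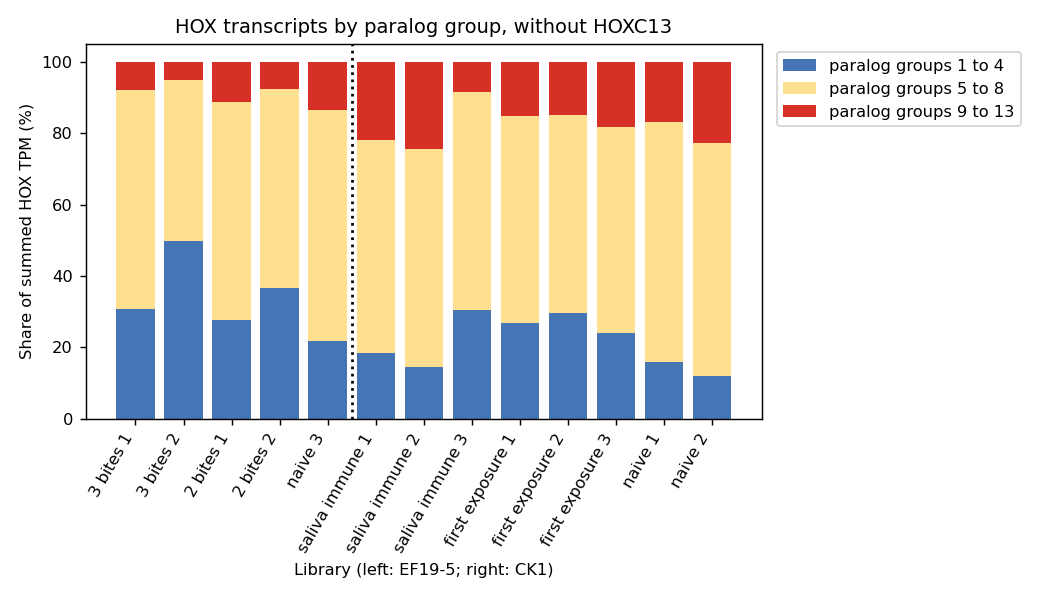
Share of summed HOX TPM (percent, HOXC13 left out) held by paralog numbers 1 to 4, 5 to 8 and 9 to 13, as stacked bars with 1 bar per library, EF19-5 left of the dotted line and CK1 right of it. The share of numbers 9 to 13 is 5.10% to 13.6% in EF19-5 and 8.33% to 24.3% in CK1, where the 8.33% is that of saliva immune replicate 3.

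Tested between the experiments with a term for the bite, 5 of 20 HOX genes were called, all lower in EF19-5: HOXD9, HOXD8, HOXA9, HOXC10 and HOXC5. The test was limma on log2(TPM + 1), and a gene was called at a Benjamini-Hochberg adjusted p under 0.05. The background is large, since 31.4% of all tested genes were called in this comparison, and 12.9% were called lower. The share of HOX genes called was thus not above that of the table, and all 5 calls lay on the lower side. Without adjustment, 5 of 20 passed 0.05 beside 42.6% of all genes. The median log2 difference was -0.16 over the 20 HOX genes and 0.12 over all genes. The experiment cannot be told apart from the kind of exposure among the bitten libraries, so the contrast is between 2 sets of libraries.

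HOXD8 (ENSCPOG00000015005) had 21.5 and 10.1 TPM in 3 bites, 14.6 and 12.5 in 2 bites and 20.3 in the naive library of EF19-5. In CK1 it had 58.3, 65.4 and 23.4 TPM in saliva immune, 49.3, 38.5 and 43.7 in first exposure and 54.5 and 89.1 in naive skin. The groups did not overlap, and saliva immune replicate 3 was the CK1 library nearest to EF19-5. HOXD8 averaged 15.8 ± 4.93 TPM in EF19-5 (SD, n = 5) and 52.8 ± 19.6 TPM in CK1 (SD, n = 8), a log2 difference of -1.61 (SE 0.238, limma adjusted p = 0.000478).

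HOXD9 (ENSCPOG00000015006), which with its paralogs patterns the limb and lumbar region in the mouse, had 5.91 and 2.67 TPM in 3 bites, 5.23 and 3.94 in 2 bites and 7.19 in the naive library of EF19-5. It had 25.0, 25.0 and 9.40 TPM in saliva immune, 13.8, 13.1 and 14.3 in first exposure and 18.9 and 26.9 in the naive libraries of CK1. Again no EF19-5 library reached the lowest CK1 library. The log2 difference was -1.64 (SE 0.235, limma adjusted p = 0.000417).

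HOXA9 (ENSCPOG00000011365), a paralog of HOXD9 also known from blood stem cells, had 2.22 and 1.39 TPM in 3 bites, 1.89 and 1.43 in 2 bites and 5.31 in the naive library of EF19-5. In CK1 it had 10.02, 14.2 and 3.13 TPM in saliva immune, 5.20, 6.50 and 6.60 in first exposure and 8.35 and 15.8 in naive skin. The groups overlapped, because the naive library of EF19-5 lay above saliva immune replicate 3 and first exposure replicate 1. The log2 difference was -1.42 (SE 0.276, limma adjusted p = 0.00226).

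HOXC10 (ENSCPOG00000009442), active in the lumbar region and hindlimb of the mouse embryo, had 0.279 and 0 TPM in 3 bites, 0.270 and 0.170 in 2 bites and 5.40 in the naive library of EF19-5. It had 2.58, 3.69 and 0.769 TPM in saliva immune, 0.735, 0.676 and 2.15 in first exposure and 4.85 and 7.09 in the naive libraries of CK1. The bitten libraries of EF19-5 lay below those of CK1, and the naive libraries of the 2 experiments overlapped. Its log2 difference was -0.90 (SE 0.280, limma adjusted p = 0.0277), and the call was lost when any 1 of 6 libraries was left out (either 3 bites library, either 2 bites library, saliva immune replicate 1 or first exposure replicate 3), with adjusted p-values of 0.0504 to 0.0633.

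HOXC5 (ENSCPOG00000009447), of the neck and upper trunk, had 2.43 to 4.88 TPM in EF19-5 and 5.14 to 9.96 TPM in CK1, without overlap. Its mean was 3.76 ± 1.2 TPM in EF19-5 (SD, n = 5) and 6.90 ± 1.54 TPM in CK1 (SD, n = 8), a log2 difference of -0.73 (SE 0.174, limma adjusted p = 0.0071). HOXC5, HOXD8 and HOXD9 were thus the 3 HOX genes with no overlap between the experiments, all lower in EF19-5, beside 5.52% of all tested genes.

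**Figure D3:**
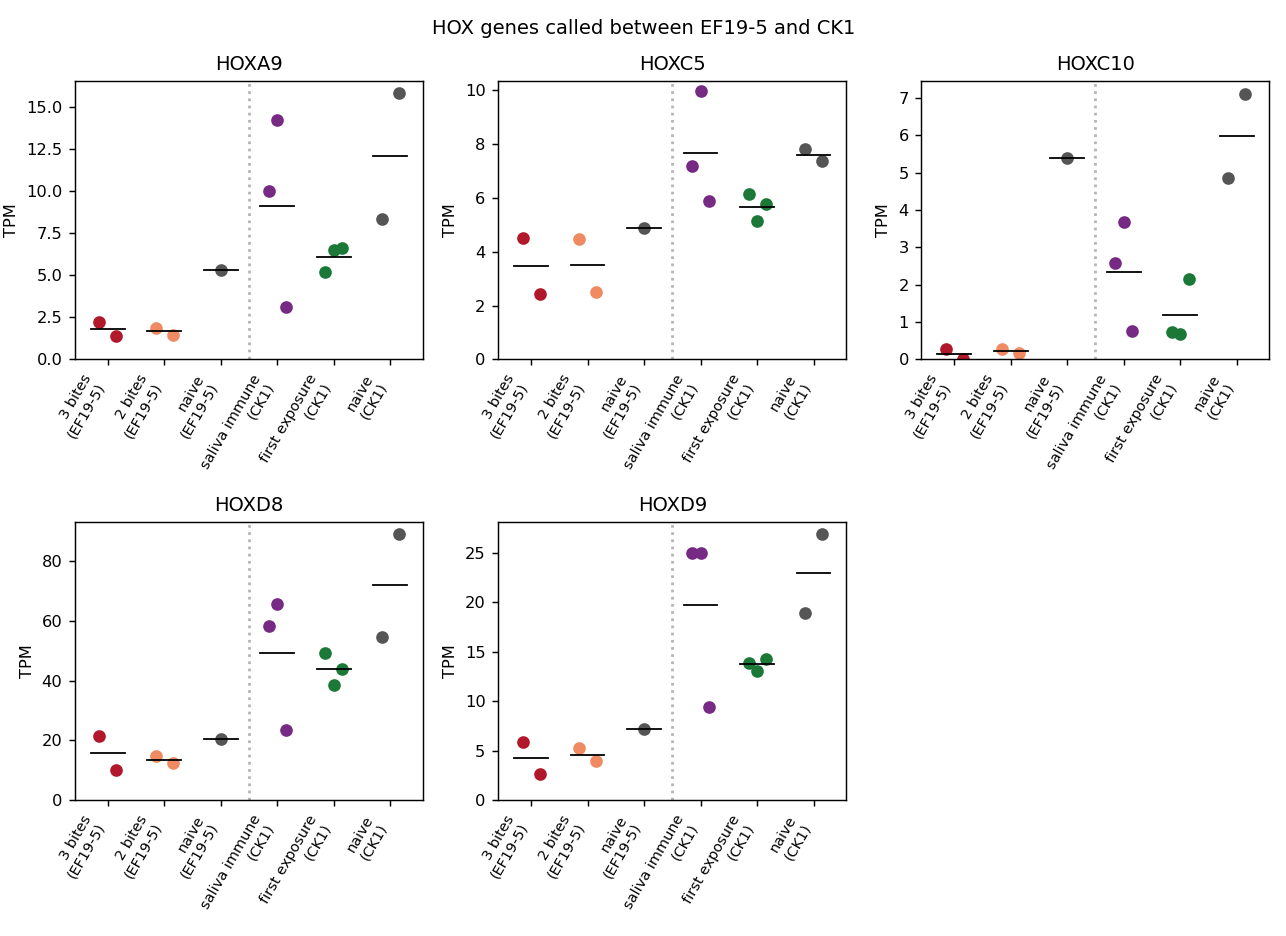
TPM of the 5 HOX genes called between the experiments, by group, with 1 point per library and a bar at the group's mean, EF19-5 left of the dotted line and CK1 right of it. HOXD8 lies at 10.1 to 21.5 TPM in EF19-5 and 23.4 to 89.1 TPM in CK1, and the EF19-5 naive library is high for HOXC10, at 5.40 TPM.

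The 5 genes were chosen by a contrast that includes both bitten and naive libraries, so their values within each are a description. On mean log2(TPM + 1), EF19-5 minus CK1 was -1.58 in bitten and -1.73 in naive skin for HOXD8, -1.67 and -1.53 for HOXD9, -1.54 and -0.99 for HOXA9, -0.79 and -0.55 for HOXC5, and -1.12 and -0.10 for HOXC10. The naive values rest on 1 EF19-5 library, whose spread limma takes from the other groups. That contrast had little power, and its 0 called HOX genes, of 0 called among 14979, with adjusted p-values of 0.250 to 0.936 for the 5, say nothing for or against a difference. Without adjustment it passed 2 HOX genes and 2266 genes.

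Skeletal muscle markers moved with the same contrast. All 17 tested markers were called lower in EF19-5, with a median log2 difference of -2.71, and their sums were 4896 to 21116 TPM in EF19-5 and 21191 to 151570 TPM in CK1. HOXD8 was 10.1 to 23.4 TPM in the 6 libraries with up to 2.12% muscle markers and 38.5 to 89.1 TPM in the 7 with 3.88% or more, a division made after the values were seen. HOXD9 was 2.67 to 9.40 TPM in those 6 and 13.1 to 26.9 TPM in those 7. The other 3 called genes overlapped, with HOXA9 at 1.39 to 5.31 and 5.20 to 15.8 TPM, HOXC5 at 2.43 to 5.87 and 5.14 to 9.96 TPM and HOXC10 at 0 to 5.40 and 0.676 to 7.09 TPM in the 6 and the 7. Naive replicate 3 of EF19-5 and saliva immune replicate 3 of CK1 had near-equal muscle marker sums, 21116 and 21191 TPM, and HOXD8 stood at 20.3 and 23.4 TPM, HOXD9 at 7.19 and 9.40, HOXC5 at 4.88 and 5.87, HOXA9 at 5.31 and 3.13 and HOXC10 at 5.40 and 0.769 TPM in them. With a muscle marker score as a covariate, limma called 0 of 20 HOX genes and 2 of 14979 genes between the experiments. The score was 7.45 to 9.42 in EF19-5 and 9.48 to 12.2 in CK1, without overlap, so this fit can hardly tell muscle from experiment. HOXD8 then had a log2 difference of 0.086 (SE 0.310, adjusted p = 0.940), HOXA9 of 0.38, HOXC10 of 0.58, HOXD9 of -0.18 and HOXC5 of -0.13. In bulk tissue, fewer cells of a type and less RNA per cell cannot be told apart.

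Other markers moved as well. Of 6 smooth muscle markers 4 were called lower in EF19-5, of 7 endothelial markers 2 lower, of 8 fibroblast markers 6 higher, of 16 hair follicle markers 4 higher and of 8 immune markers 1 higher, beside 31.4% of all genes called. Of these calls, those of KDR, KRT71, KRT25, KRT74, PTPRC, KRT85, DCN and PDGFRA held under 7, 7, 8, 9, 9, 10, 14 and 15 of 22 alternatives. The fibroblast markers summed to 3203 to 12696 TPM in EF19-5 and 1830 to 3786 TPM in CK1. Smooth muscle markers summed to 262 to 543 TPM in EF19-5 and 733 to 4137 TPM in CK1. Most of that sum was DES alone, at 165 to 440 TPM in EF19-5 and 581 to 3995 TPM in CK1. Of the other smooth muscle markers, MYH11, CNN1, ACTG2 and SMTN overlapped between the experiments and LMOD1 did not. None of the smooth muscle, endothelial, fibroblast, hair follicle or immune markers in the table was at 0 in any library, and the part of smooth muscle, endothelium and fibroblasts in the HOX result was not tested. No marker of keratinocytes, adipocytes, melanocytes or erythroid cells was called.

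HOXC13 (ENSCPOG00000020390) had 104 and 90.1 TPM in 3 bites, 40.4 and 146 in 2 bites and 144 in the naive library of EF19-5. In CK1 it had 83.5, 56.4 and 104 TPM in saliva immune, 141, 85.8 and 84.1 in first exposure and 116 and 97.7 in naive skin. The 2 libraries of 2 bites, the lowest and the highest of all 13, spanned the whole range. Hair follicle markers took 0.900% to 2.82% of TPM in EF19-5 and 0.470% to 1.66% in CK1, with 0.900% and 2.82% in the 2 libraries of 2 bites. Relative to the summed hair follicle markers, HOXC13 amounted to 0.449% to 0.597% in EF19-5 and 0.785% to 1.39% in CK1. It was not called in any of the 7 comparisons. With a hair follicle score as a covariate it was called between the experiments at a log2 difference of -0.45 (SE 0.129, limma adjusted p = 0.0272), as was HOXB2 at -0.49, while HOXC10 was not called, at -0.65 (adjusted p = 0.142).

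**Figure D4:**
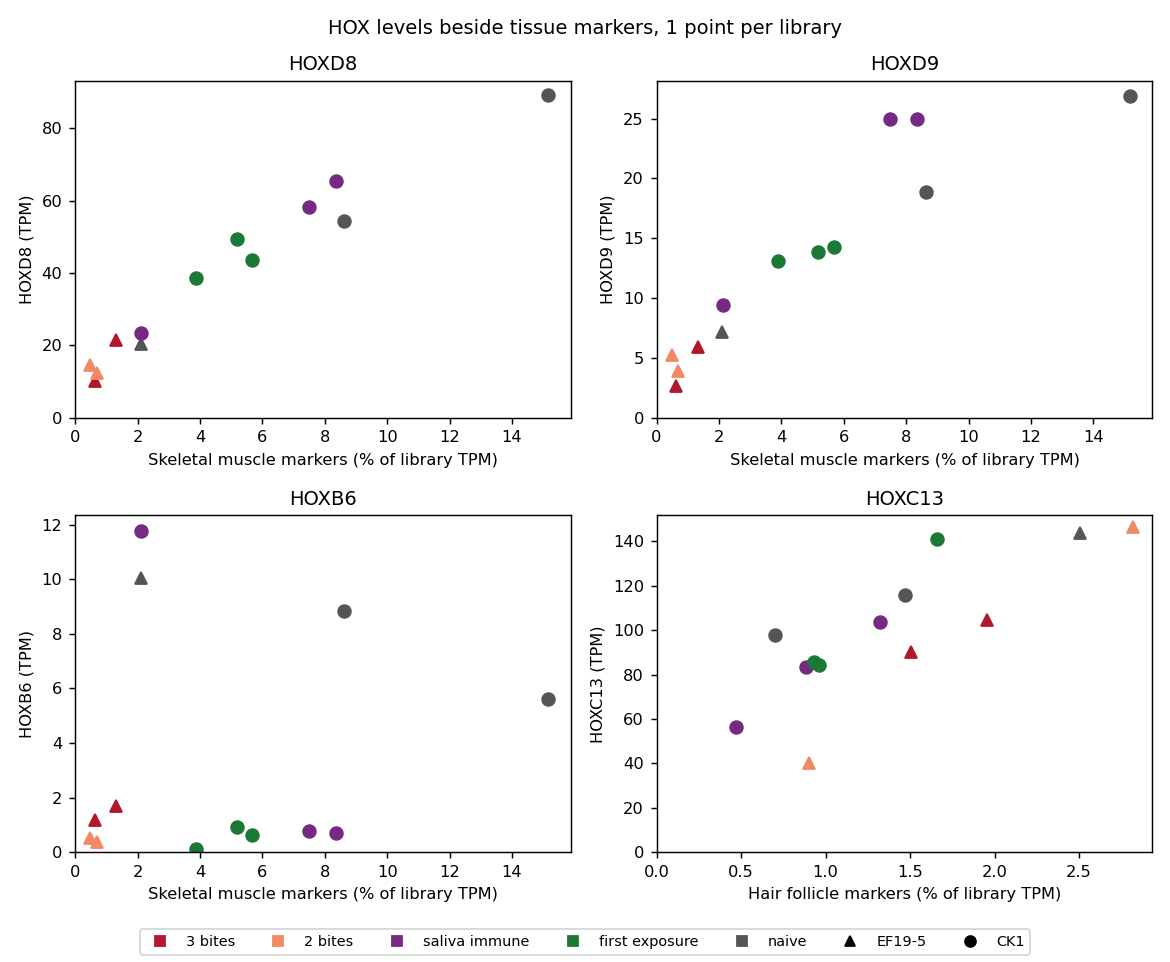
HOX level (TPM) against the share of TPM held by skeletal muscle markers (HOXD8, HOXD9, HOXB6) or hair follicle markers (HOXC13), with 1 point per library, triangles for EF19-5 and circles for CK1, coloured by group. HOXD8 reaches 89.1 TPM in the library with 15.2% muscle markers, and HOXB6 is high, at 10.03 and 11.8 TPM, in libraries with 2.11% and 2.12%.

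Transcripts of the proteins that bind DNA with HOX factors were also measured. Of 8 TALE homeodomain cofactors tested between the experiments, 2 were called higher in EF19-5, PBX3 and MEIS2, and 2 lower, PKNOX2 among them, beside 31.4% of all genes. PKNOX2 averaged 3.66 ± 1.04 TPM in EF19-5 (SD, n = 5) and 11.3 ± 1.92 TPM in CK1 (SD, n = 8), a log2 difference of -1.41 with no overlap. PBX3 was 10.05 to 19.7 TPM in EF19-5 and 6.31 to 10.4 TPM in CK1, and PBX2, the highest cofactor and not called, was 56.6 to 95.0 TPM in EF19-5 and 43.3 to 85.3 TPM in CK1. MEIS2 (adjusted p = 0.0478) kept its call under 5 of 22 alternatives, and that of PBX3 (adjusted p = 0.0250) was lost without either 3 bites library. Of the retinoic acid and CDX genes that act upstream of HOX clusters, 0 of 7 tested were called, and CDX2, a gene of the tail bud and gut, was listed at 0 in every library. RXRA was the highest of these, at 136 to 241 TPM in EF19-5 and 165 to 262 TPM in CK1, followed by RARG and by CYP26B1, which degrades retinoic acid. Of 19 Polycomb and trithorax genes, which hold HOX clusters silent or active, EZH2 and EED were called higher and PHC1 lower in EF19-5. Their calls held under 18, 11 and 16 of 22 alternatives, and were lost without 3 bites replicate 2 for EZH2 and EED, without 2 bites replicate 1, saliva immune replicates 1 or 2 or naive replicates 2 or 3 for EED, and without 3 bites replicate 1 or 2 bites replicate 2 for PHC1. EZH2, the Polycomb methyltransferase, averaged 13.2 ± 2.45 TPM in EF19-5 (SD, n = 5) and 8.99 ± 1.79 TPM in CK1 (SD, n = 8).

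Position genes outside the HOX clusters included markers of limbs and head. TBX5 and TBX4, which mark forelimb and hindlimb, stayed at or below 0.22 and 0.15 TPM in every library, and HAND2 at or below 0.35 TPM. BARX1, DLX6 and OTX2, genes of the jaw and forebrain, were listed at 0 in all 13. Of 14 limb and body wall genes tested, 5 were called, beside 31.4% of all genes: TBX15, PITX1, TBX3 and SIM1 were called lower in EF19-5 and SHOX2 higher. The call of SHOX2 was lost without 3 bites replicate 1, 2 bites replicate 2, saliva immune replicate 1, first exposure replicate 1 or naive replicate 3. PITX1, a hindlimb gene, had 0.604 to 2.39 TPM in EF19-5 and 1.78 to 38.3 TPM in CK1, with 38.3, 20.8 and 1.78 TPM in the 3 saliva immune libraries (log2 difference -2.17, SE 0.504, limma adjusted p = 0.00637). TBX15, which in the mouse acts in dermis, shoulder skeleton and muscle fibres, had 13.8 to 35.0 TPM in EF19-5 and 37.4 to 164 TPM in CK1. MSX2, the highest of the list, was 57.9 to 161 TPM in EF19-5 and 46.5 to 108 TPM in CK1 and was not called. Of 13 head genes tested 4 were called, also near that share, since 3 were called lower in EF19-5, SIX2 and BARX2 among them, and DLX5 was called higher, with its call kept under 4 of 22 alternatives. SIX2 was 2.06 to 5.41 TPM in EF19-5 and 9.37 to 46.9 TPM in CK1, and DLX3, the highest and also a hair follicle gene, was 172 to 349 TPM and 104 to 303 TPM in the same order. With the muscle score as a covariate, which did not overlap between the experiments, none of these called position genes stayed called. In the other 6 comparisons no gene of these 5 lists was called.

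Between bitten and naive skin, with the experiment as a term, limma called 0 of 20 HOX genes and 6 genes in all (0.0401%). Without adjustment, 7 of 20 passed 0.05 beside 15.8% of all genes, 6 of them lower and HOXB1 higher in bitten skin. The median log2 difference was -0.40 over the 20 HOX genes and 0.10 over all genes, and with the muscle score as a covariate -0.033 and -0.052. With that covariate 4 of 20 HOX genes passed an unadjusted 0.05, all lower in bitten skin, beside 1047 of 14979 genes. HOXC10 and HOXC6 were lower in all 10 bitten libraries than in any of the 3 naive ones, which held for 0.28% of all genes. The muscle markers of the bitten libraries, 0.490% to 8.35%, overlapped those of naive skin, 2.11% to 15.2%, 1 of 17 (PVALB) was called lower, and with the muscle score as a covariate 0 HOX genes and 1 gene were called. Medians of the other marker lists, none with a called gene, were 1.39 for adipocytes, 0.972 for immune cells, 0.634 for endothelium, 0.408 for keratinocytes, -0.197 for the hair follicle, -0.343 for smooth muscle and -0.519 for fibroblasts. Fibroblast markers summed to 1830 to 8862 TPM in bitten skin and 2442 to 12696 TPM in naive skin, and adipocyte markers to 1161 to 7240 TPM in bitten skin and 532 to 2302 TPM in naive skin. Their part in the HOX values was not tested.

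HOXC10 was 0 to 3.69 TPM in bitten skin, with a median of 0.705, and 5.40, 4.85 and 7.09 TPM in naive skin. It had the smallest p among HOX genes, with a log2 difference of -1.79 (SE 0.324, limma adjusted p = 0.0729). Bitten minus naive was -2.45 within EF19-5, against 1 naive library, and -1.44 within CK1. HOXC6 (ENSCPOG00000032302), a gene of the upper trunk and forelimb level, was 4.01 to 13.9 TPM in bitten skin, with a median of 7.11, and 18.5, 18.1 and 17.9 TPM in naive skin. Its log2 difference was -1.14 (SE 0.310, limma adjusted p = 0.137), with -1.42 within EF19-5 and -0.98 within CK1.

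HOXB6 (ENSCPOG00000040707), known in the mouse from the flank and hindlimb mesoderm, had 1 high library among the bitten ones. It had 1.69 and 1.2 TPM in 3 bites, 0.520 and 0.363 in 2 bites, 0.767, 0.719 and 11.8 in saliva immune and 0.929, 0.104 and 0.625 in first exposure, against 10.03, 8.83 and 5.62 TPM in the 3 naive libraries. Saliva immune replicate 3 lay above all 3 naive libraries, and the other 9 bitten libraries lay below all of them. Its log2 difference was -2.09 (SE 0.552, limma adjusted p = 0.130), and without saliva immune replicate 3 it was -2.41 (adjusted p = 0.00214) and the gene was called. Its neighbour HOXB5 took a like course at a lower level, with 1.92 TPM in saliva immune replicate 3, 0 to 0.436 TPM in the other 9 bitten libraries and 1.12, 1.86 and 0.596 TPM in naive skin. In naive replicates 3, 1 and 2, with 2.11%, 8.63% and 15.2% muscle markers, HOXB6 had 10.03, 8.83 and 5.62 TPM and HOXD8 had 20.3, 54.5 and 89.1 TPM.

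**Figure D5:**
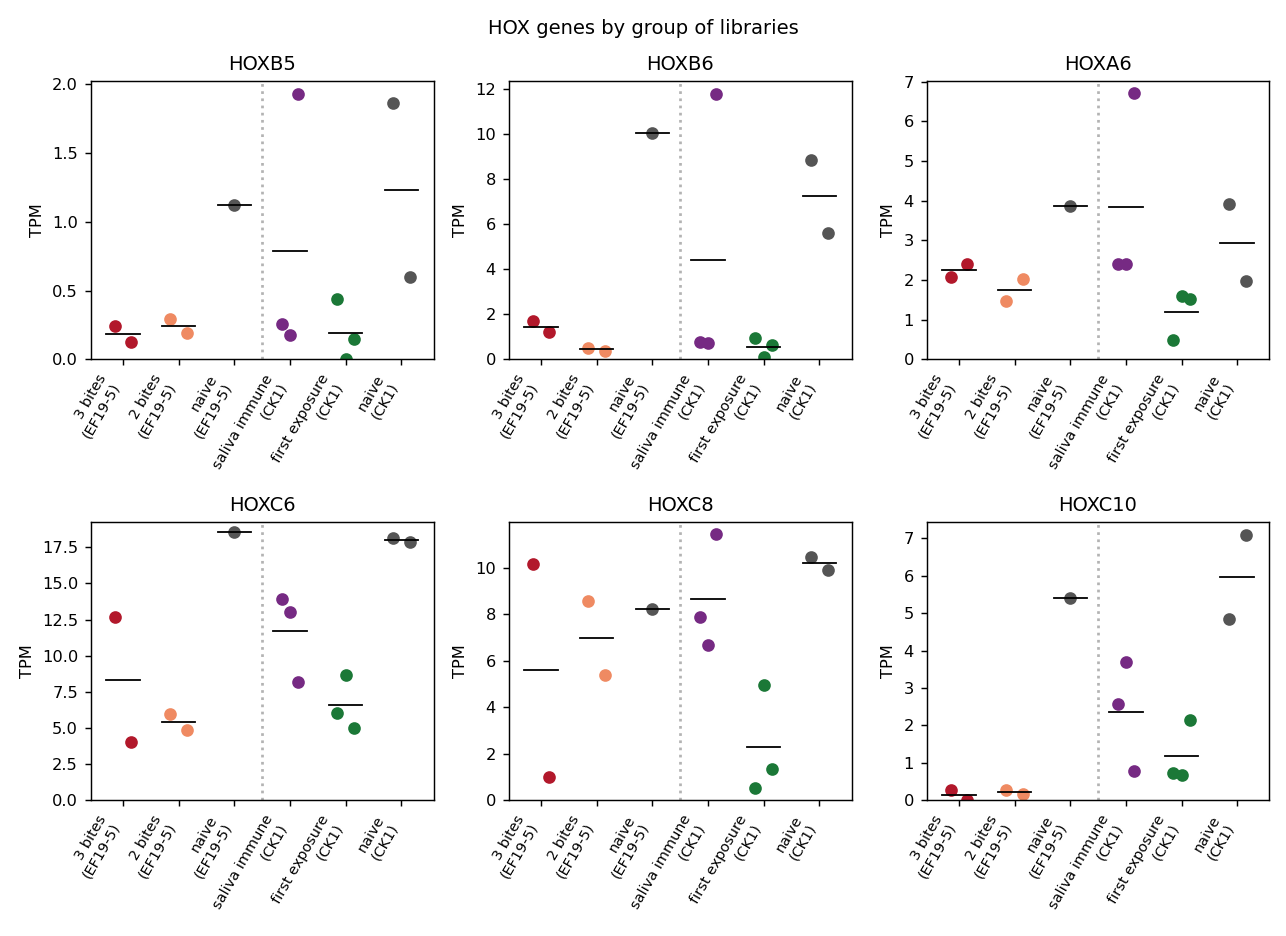
TPM of 6 HOX genes by group, with 1 point per library and a bar at the group's mean, EF19-5 left of the dotted line and CK1 right of it, each with bitten groups left of naive skin. HOXC6 and HOXC10 lie lower in every bitten library than in the naive ones, and saliva immune replicate 3 is the high bitten point of HOXB5, HOXB6 and HOXA6, at 1.92, 11.8 and 6.70 TPM.

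In the model of groups, first exposure is set against naive replicates 1 and 2 of CK1 through the experiment term. Muscle markers took 3.88% to 5.68% of TPM in first exposure and 8.63% and 15.2% in those naive libraries. Median log2 differences were -1.41 for muscle, 2.26 for adipocyte, 1.0 for immune, 0.653 for keratinocyte and -0.599 for fibroblast markers, none with a called gene. The part of the adipocyte, immune, keratinocyte and fibroblast markers in the HOX values was not tested. With the muscle score as a covariate, limma called 0 of 20 HOX genes and 2 genes in all. Without adjustment 7 of 20 HOX genes then passed 0.05, all lower, beside 1825 of 14979 genes. The median log2 difference over the 20 HOX genes was -0.18 with that covariate and -0.48 without it, and over all genes -0.080 and 0.14. First exposure against naive skin called 0 of 20 HOX genes and 5 genes in all (0.0334%). Without adjustment 5 of 20 passed 0.05 beside 13.6% of all genes, namely HOXC10, HOXC6, HOXB6, HOXC8 and HOXD3, all lower. The 7 HOX genes HOXA6, HOXB5, HOXB6, HOXC6, HOXC8, HOXC10 and HOXD3 were lower in the 3 first exposure libraries than in all 3 naive ones, beside 6.5% of all genes. Against the 2 naive libraries of CK1 alone, 11 HOX genes were lower, beside 14.1% of all genes. HOXA2, HOXB1 and HOXB2, of the head end, were higher without overlap, beside 9.44% of all genes over 3 naive libraries and 21.9% over those of CK1. HOXC8, a gene of the thorax in the mouse, had 0.521, 4.98 and 1.33 TPM in first exposure and 10.5 and 9.92 TPM in the naive libraries of CK1, a log2 difference of -2.02 (SE 0.694, limma adjusted p = 0.282). HOXB6 reached -2.42 (adjusted p = 0.240), and it was called when saliva immune replicate 3, which shares in the estimate of spread, was left out (adjusted p = 0.0219).

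Saliva immune libraries held 2.12% to 8.35% muscle markers. Saliva immune against naive skin called 0 of 20 HOX genes and 1 gene in all (0.00668%). Without adjustment 2 of 20 passed 0.05 beside 11.6% of all genes, HOXC10 with a log2 difference of -1.15 (limma adjusted p = 0.375) and HOXB1 with 0.83 (adjusted p = 0.377). This comparison and the last share the naive libraries of CK1. Adipocyte, immune and muscle markers had medians of 2.09, 1.04 and -1.27, none with a called gene. HOXB1 had 0.532, 1.09 and 1.39 TPM in saliva immune and 0.237 and 0 TPM in the naive libraries of CK1, all low levels. HOXD4 had 2.87, 2.95 and 3.20 TPM in saliva immune and 2.41 and 1.19 TPM in the naive libraries of CK1, and the log2 difference was 0.55 (adjusted p = 0.432).

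Saliva immune against first exposure, 3 libraries each within CK1, called 0 HOX genes and 0 genes in all (0.0%). Without adjustment, limma passed 351 genes (2.34%) and 3 of 20 HOX genes, HOXA6, HOXC8 and HOXD4, all higher in saliva immune skin. HOXA6 had 2.40, 2.40 and 6.70 TPM in saliva immune and 0.495, 1.61 and 1.52 TPM in first exposure (log2 difference 1.06, SE 0.362, adjusted p = 1.0). HOXC8 had 7.89, 6.70 and 11.4 TPM in saliva immune against 0.521, 4.98 and 1.33 TPM in first exposure. These 3 and HOXC4 did not overlap between the groups, beside 5.41% of all genes.

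Within EF19-5, 3 bites against 2 bites called 0 HOX genes and 0 genes in all (0.0%), and without adjustment 1615 genes (10.8%) and 0 of 20 HOX genes passed 0.05 with limma. Muscle markers were 0.635% and 1.32% in 3 bites and 0.490% and 0.697% in 2 bites. HOXA3 had 5.19 and 7.10 TPM in 3 bites and 2.59 and 4.41 TPM in 2 bites. The test of whether bitten minus naive differed between EF19-5 and CK1 called 0 HOX genes and 0 genes in all (0.0%), with 403 genes (2.69%) and 0 HOX genes past an unadjusted 0.05 in limma. HOXC10 had the smallest p there, at -1.01 (SE 0.646, adjusted p = 1.0).

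The libraries were set beside each other over the 24 detected HOX genes except HOXC13, by the root mean square difference in log2(TPM + 1). By this distance 11 of 13 libraries had their nearest neighbour in the same experiment and 10 of 13 in the same group. The 9 pairs within a group and experiment had a median distance of 0.504 and the 69 other pairs 0.890. Saliva immune replicates 1 and 2 were the closest pair, at 0.297. The 2 libraries whose nearest neighbour was in the other experiment were naive replicate 3, nearest to naive replicate 1 at 0.488, and saliva immune replicate 3, nearest to naive replicate 3 at 0.680.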

How the data were processed

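Total RNA of guinea pig skin was isolated with a Qiagen kit and made into Illumina libraries, per the labels' protocols. The values are TPM as the authors deposited them, 1 column per library, each summing to 1000000. Per the submitters' processing notes, the tools included DESeq, StringTie and Trimmomatic, and for the aligner, genome build and annotation the sources used here name nothing. TPM keeps no record of depth, which is therefore unknown, and a rise of 1 tissue lowers the shares of all others.

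The 14979 genes that reached 1 TPM in 2 or more libraries entered limma (version 3.58.1, R 4.3.3) as log2(TPM + 1) values (empirical Bayes with intensity trend, two-sided, Benjamini-Hochberg over all 14979, threshold 0.05). The pseudocount of 1 understates changes of low genes. Bitten skin and experiment were additive terms in 1 model; group comparisons came from a model of 5 groups plus experiment. The fits were also run on simulated data. Its noise was drawn independently for each gene, without tissue differences shared among genes, so it does not vouch for these contrasts. Members, marker lists and pathway lists were chosen with earlier results of these data known. Named with values are the 10 highest HOX genes, those called, HOXC13, the 3 with the smallest p per comparison, and list genes called or among the 3 highest of their list; others were picked after their values were seen. Symbols were matched without regard to case, all 30 to the RefSeq table of assembly mCavPor4.1, used only for names and overlaps. Tables were handled with pandas 2.3.3 in Python 3.11.15 and plots drawn with matplotlib 3.10.9. Alternatives changed the pseudocount, filter, scaling, weights, covariates and libraries. Values of a few genes under the naming rule are not reported here.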

Additional observations from a re-analysis of the deposited data

Results flagged for a closer look

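There were 54 checks for a library far from the rest of its set (10 bitten, 5 EF19-5 or 8 CK1 libraries), by the gap to its nearest neighbour over the whole range. Of these 6 stood out, all in the bitten or EF19-5 sets. Chance alone gives about 1 in 20 where a set is of 1 kind, which none of these sets is. The EF19-5 and CK1 sets mix bitten and naive skin, and the bitten set mixes both experiments and all kinds of exposure. Saliva immune replicate 3 was high among the 10 bitten libraries for HOXA5, at 30.5 TPM against 11.4 to 17.5 in the other 9, for HOXA6, at 6.70 TPM against 0.495 to 2.41, and for HOXB6, at 11.8 TPM against 0.104 to 1.69. Naive replicate 3, the one unbitten library of EF19-5, was high among the 5 EF19-5 libraries for HOXA9, at 5.31 TPM against 1.39 to 2.22 in the other 4, for HOXB6, at 10.03 TPM against 0.363 to 1.69, and for HOXC10, at 5.40 TPM against 0 to 0.279.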

How the results depend on the processing

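Depth is unknown, the labels give no body site, and only 1 EF19-5 library is unbitten, so low HOX genes and the experiment contrast rest on few values. No paired analysis was possible because no replicate numbers in the labels pair the libraries. The count of HOX genes called between EF19-5 and CK1 (5) was 5 to 6 under other pseudocounts, filters, scaling, weights and a hair follicle covariate. Over all genes, calls under those settings ran from 3304 with the hair follicle covariate to 5731 with array weights, each of 14979. When a library was left out, 4 to 5 HOX genes were called. Calls over all genes then ran from 3317 of 14946 without naive replicate 3 to 5351 of 14874 without saliva immune replicate 3. The HOX count was 0 with the muscle covariate, beside 2 genes in all. The muscle score did not overlap between the experiments and can hardly be told apart from them. The muscle covariate turned HOXA9 to 0.38, HOXC10 to 0.58 and HOXD8 to 0.086. In bitten against naive skin (0 called) array weights gave 2 (HOXC10 and HOXB6), beside 92 of 14979 genes. Leaving out a library gave 0 to 1 there. HOXC10 was called without saliva immune replicate 2, beside 6 genes in all, and HOXB6 without saliva immune replicate 3, beside 4 in all. In first exposure against naive skin leaving out a library gave 0 to 1, with HOXB6 called without saliva immune replicate 3, beside 19 genes in all. In saliva immune against first exposure array weights gave 7 HOX genes and 2174 genes in all, from a weight estimate that stopped before it converged. In 3 bites against 2 bites the muscle covariate gave 1 HOX gene and 2201 genes in all; the cause was not tested. Median-of-ratios scaling brought the median over all genes from 0.12 to 0.01 between the experiments and left the same 5 HOX genes called.

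For 3 bites, 2 bites, saliva immune, first exposure and naive skin in that order, the mean paralog number became 4.89, 5.45, 6.30, 6.02 and 6.47 without HOXC13, and 5.53, 5.63, 5.51, 5.43 and 5.75 as a plain mean over genes at 1 TPM or more. Summed HOX TPM without HOXC13 was 97.7, 76.9, 172.7, 132.8 and 183.8. With HOXC13 counted, summed HOX TPM was 253.9 in saliva immune and 302.8 in naive skin. Rescaled without the muscle markers, and with HOXC13 still counted, it was 270.0 in saliva immune and 333.5 in naive skin.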
